A study of Mus musculus with 4 samples.

Results

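The proteasome is the large protease that degrades proteins tagged with ubiquitin. Its barrel-shaped core is built from alpha rings, which gate the entrance, and beta rings, which carry the protease sites, and a regulatory cap with ATPase and non-ATPase subunits recognises, unfolds and feeds in the tagged protein. Interferon-gamma exchanges the catalytic beta subunits for immunoproteasome versions, which macrophages and other antigen-presenting cells use when they cut proteins into peptides for class I presentation. Transcripts of these subunits were taken by gene symbol, as every probe set with a single symbol that begins with Psm, a letter from a to g and a number. This gave 103 of the 45101 probe sets on the array, for 49 of 18193 genes. The 49 were 14 constitutive core genes, 3 immunoproteasome genes, 2 tissue-specific core genes, 20 cap genes, 3 activator genes, 1 inhibitor gene, 4 chaperone genes of core assembly, Psme3ip1, whose product binds the activator subunit Psme3, and Psmc3ip. Psmc3ip is no part of the proteasome but a meiotic recombination factor whose symbol fits the pattern, and it is left out of the counts below. One more probe set carried the joint symbols of Psme2 and Psme2b and was not used here, so that the interferon-inducible activator subunit Psme2 has no value.

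The study asked how macrophages form from marrow cells in culture during space flight. Both groups came from 1 pool of bone marrow of 21 adult C57BL/6 mice over 8 weeks old, grown at 37 °C with 1.5 µg/ml recombinant M-CSF, a cytokine that directs progenitors of the marrow into the macrophage lineage. Flight cultures travelled in sealed glass barrels on a space shuttle, and ground control cultures stayed in the same kind of barrels under a parallel temperature profile. All were fed on culture day 6 and lysed on culture day 15, which was flight day 14. Lysis took place in the sealed barrel, before landing. There were 2 arrays per group, each with RNA of 2 barrels and picked for RNA quality from 4 such pools per group, so that p-values measure spread between cultures and arrays and not between animals. Values are quantile normalized log2(intensity + 16), and each difference is the flight mean less the ground mean. Of the 49 genes, 48 were measured, meaning that their mean over the 4 arrays reached 6.40, the median over all probe sets other than controls. The exception was Psmb11, the core subunit of thymic cortical epithelium, with 6.26 and 5.63 on the flight arrays and 4.30 and 4.65 on the ground arrays.

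The cultures expressed macrophage genes, and markers of other blood lineages had unequal sums in the groups. The summed normalized intensity of 8 macrophage markers was 105988 to 111055 in space flight and 136113 to 138756 in ground control, with 1 of 8 genes above 0 in difference. For 11 neutrophil markers the sums were 86103 to 114155 in space flight and 49609 to 51969 in ground control, with 10 of 11 above 0. Of the 11, 2 passed the test (limma, adjusted p under 0.05), both higher, where 0.0449% of all measured genes passed as higher. Of the macrophage and erythroid markers 0 passed. For the 7 erythroid markers named here the sums were 6437 to 12215 in space flight and 1668 to 3396 in ground control, with 5 of 7 above 0. Most of these sums came from Slc4a1, with log2 levels of 12.42 and 13.39 in flight and 10.05 and 11.43 on the ground. Epor and Gata1 lay below 0, at −0.34 and −0.42. Lymphoid markers summed to 334 to 498 in space flight and 211 to 238 in ground control, with 2 of the 4 named here below the dim limit. Dendritic markers summed to 564 to 805 in space flight and 766 to 1283 in ground control, with 5 of 6 below it. The RNA integrity number was 3 for all samples. The 3' to 5' ratio of the Gapdh control was 4.09 and 15.2 on flight arrays 1 and 2, against 4.13 and 3.33 on ground arrays 1 and 2. That of the actin control was 3.08 and 4.91 in flight, against 2.30 and 2.84 on the ground. The transferrin receptor control went another way, with 5.50 and 3.47 in flight and 4.96 and 7.84 on the ground, so flight array 2 was lowest. In bulk RNA, fewer cells of a type and less RNA per cell cannot be told apart, and the part of the cell mixture or of RNA quality in the differences below was not tested.

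Proteasome transcripts had differences of both signs between flight and ground cultures. Whether the members vary beyond a small common shift was not tested. Of 47 measured genes, 0 passed the test over all 11141 measured genes in either direction (limma, Benjamini-Hochberg, threshold 0.05), where 0.0628% of all measured genes passed, 0.0449% higher and 0.018% lower. At an unadjusted limma p under 0.05 there were 6 higher and 5 lower members, or 23.4% of the members. Over all measured genes 6.88% were higher and 7.32% lower, 14.2% in all. The members were brighter, with a median level of 11.65 against 9.25, and the fit's intensity trend lets the standard error depend on level. Fitted without that trend, Psmb4, Psmc6, Psme3ip1, Psma5, Psmc2 and Psmd14 had an unadjusted limma p above 0.05. Psmb3, Psmd13, Psmc5, Psmd8 and Psmd1 stayed under it. The share of all measured genes under 0.05 in that fit was not counted, and whether level bears on the members' share was not tested. The median difference was 0.11 over the 47 genes and 0.02 over all measured genes, with a range of −0.72 to 1.09 and with 30 of 47 above 0. With each array shifted to 1 median, which moved the median of all genes to −0.16, 24 of 47 lay above 0 and 27 of 47 lay above the median of all genes.

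Both flight values lay above both ground values for 18 members and below both for 7, or 38.3% and 14.9% of them, where 23% and 22.5% of all measured genes were so separated, 45.5% in all. The groups overlapped for the other 22. Psmb3, Psmd13, Psmd8, Psmd1, Psmc5, Psma5, Psmd14, Psmb4, Psmc2 and Psmc6 were picked below from the separated members. Their separation is thus part of the choice and no further result. The median distance between replicates was 0.22 for flight and 0.22 for ground over the members, and 0.40 and 0.26 over all measured genes. The median size of the difference between groups was 0.26 over the members and 0.33 over all measured genes.

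**Figure D1:**
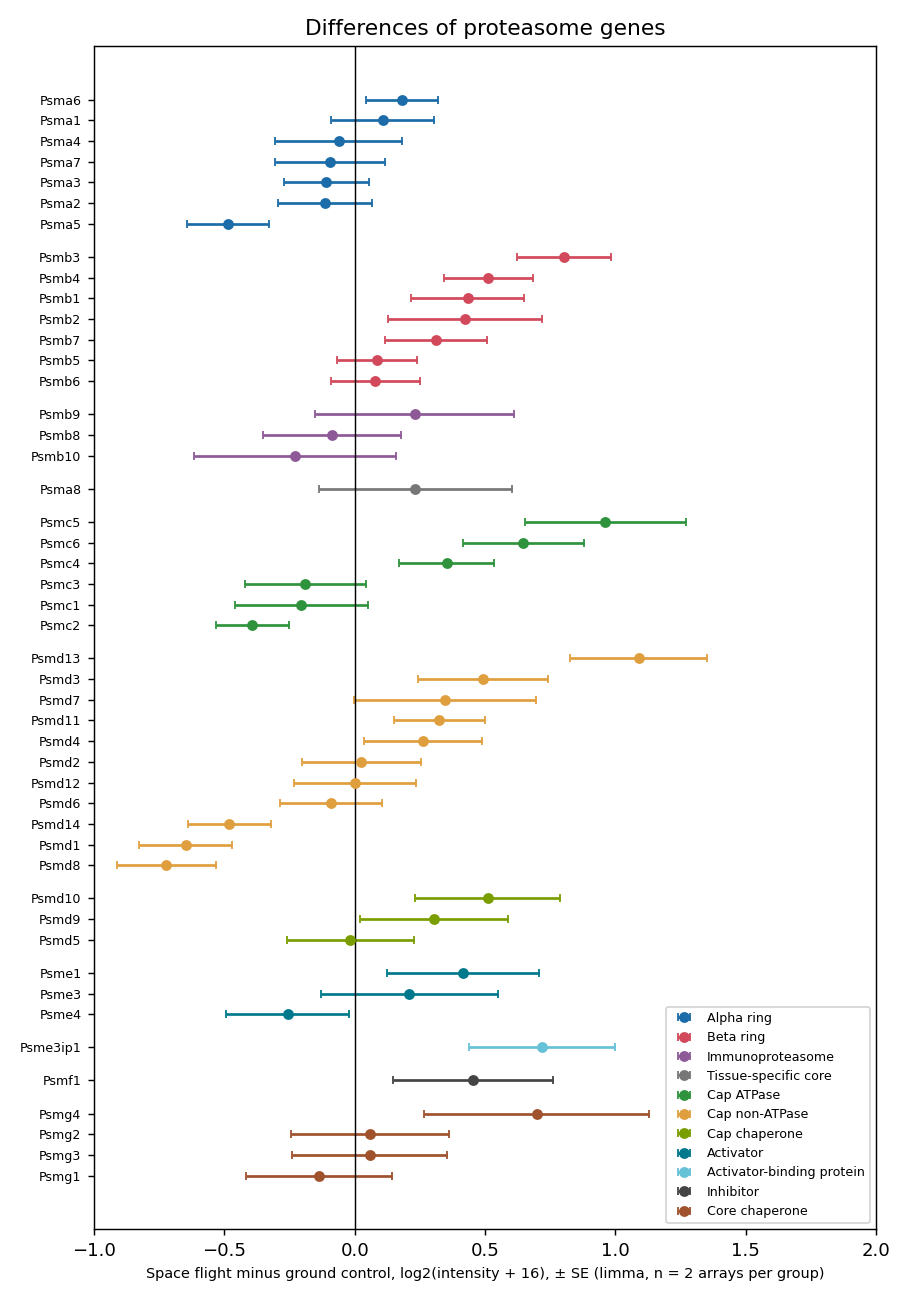
Difference between space flight and ground control for each of the 47 measured proteasome genes, on the log2(intensity + 16) scale, with points for the difference and bars for ± 1 SE from limma (n = 2 arrays per group). Genes are grouped by their role and sorted within it; the beta ring genes lie right of 0, and the cap genes run from −0.72 for Psmd8 to 1.09 for Psmd13.

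Promoter sequences are given for the members with the highest and the lowest moderated statistic among separated genes, Psmb3 and Psmd8, picked after their values were seen, and for the interferon-inducible Psmb8 and Psmb9. RefSeq promoters of build GRCm38.p6, from 250 bases before to 50 bases after the start, were on hand for 41 of the 49 genes. Capitals mark matches on either strand to TGACNNNGC, the core of the element bound by Nfe2l1 and Nfe2l2, to CCAAT, the NF-Y box, to TTCNNNGAA, the gamma-activated site, and to the interferon response core, a pair of GAAA blocks with 2 free bases between them. No 2 matches overlap in these sequences.
Psmb3, chr11:97703184-97703483, plus strand: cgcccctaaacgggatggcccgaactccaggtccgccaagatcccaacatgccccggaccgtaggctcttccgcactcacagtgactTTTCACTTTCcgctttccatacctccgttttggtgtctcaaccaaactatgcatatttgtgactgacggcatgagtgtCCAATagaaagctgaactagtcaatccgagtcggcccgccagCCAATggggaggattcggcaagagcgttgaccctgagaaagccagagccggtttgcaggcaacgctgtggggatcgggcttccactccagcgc
Psmd8, chr7:29180624-29180923, minus strand: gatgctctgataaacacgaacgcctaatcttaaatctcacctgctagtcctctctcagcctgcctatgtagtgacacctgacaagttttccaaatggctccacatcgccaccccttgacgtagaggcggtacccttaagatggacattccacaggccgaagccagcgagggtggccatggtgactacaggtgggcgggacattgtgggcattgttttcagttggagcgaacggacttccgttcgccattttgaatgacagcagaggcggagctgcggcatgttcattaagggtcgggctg
Psmb8, chr17:34197945-34198244, plus strand: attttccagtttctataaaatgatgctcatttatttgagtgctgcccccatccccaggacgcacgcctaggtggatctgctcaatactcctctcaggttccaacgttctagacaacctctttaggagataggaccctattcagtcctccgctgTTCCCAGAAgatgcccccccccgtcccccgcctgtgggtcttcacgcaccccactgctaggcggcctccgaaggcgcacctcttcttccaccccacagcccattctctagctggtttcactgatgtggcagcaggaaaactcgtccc
Psmb9, chr17:34187281-34187580, minus strand: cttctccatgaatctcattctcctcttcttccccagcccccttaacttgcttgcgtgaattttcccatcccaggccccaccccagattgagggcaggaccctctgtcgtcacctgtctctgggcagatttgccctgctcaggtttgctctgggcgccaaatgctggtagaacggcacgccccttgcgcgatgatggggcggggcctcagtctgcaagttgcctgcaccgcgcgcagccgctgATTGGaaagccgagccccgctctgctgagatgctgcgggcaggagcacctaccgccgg

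The Psmb3 window held CCAAT at bases 166 to 170 and 208 to 212 and the interferon response core at bases 88 to 97 on the other strand, counted from 1 at the 5' end. Psmb8 held TTCNNNGAA at bases 154 to 162, Psmb9 held CCAAT at bases 243 to 247 on the other strand, and Psmd8 held none of the motifs. Shares of the members below count genes with a match in any of their promoters, and shares over all count single promoters. The units are thus unlike, and a gene with several promoters can match more easily. Over the 41 genes, TGACNNNGC occurred in 6, or 14.6%, against 12.4% of all 32851 promoters. CCAAT occurred in 16, or 39.0%, against 37.4%, TTCNNNGAA in 3, or 7.32%, against 8.30%, and the interferon response core in 5, or 12.2%, against 3.44%. Those 5 were Psmb3, Psmd4, Psmd9, Psme1 and Psmg4, with a median difference of 0.41, beside 0.0009 for the 35 other measured genes with a promoter, Psmc3ip among them. For TGACNNNGC, the 6 genes with it had a median difference of 0.08 and the 34 without it 0.04. The other interferon motif, TTCNNNGAA, went the opposite way, with −0.09 for the 3 genes with it and 0.09 for the 37 without. For CCAAT the medians were 0.11 for 15 genes with it and 0.06 for 25 without. A match describes letters in the window and is no evidence of binding, and a missing match says nothing of the factor.

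The core rings had unlike values over the 4 arrays. All 7 constitutive beta ring genes had a difference above 0, with a median of 0.42 and a range of 0.08 to 0.80, while 5 of 7 alpha ring genes lay below 0, with a median of −0.10 and a range of −0.49 to 0.18. None of the 14 passed the test. The beta ring genes lay above 0 in 7 of 7 cases under the 3 other array scalings also. With each array shifted to 1 median, Psmb6 and Psmb5 were barely so, at 0.00082 and 0.0087. They lay above 0 in 6 of 7 cases without flight array 2 or without ground array 1, where Psmb6 stood at −0.02 and −0.05. The alpha ring had 3 of 7 genes above 0 with values as deposited, 1 of 7 with each array shifted to 1 median and 4 of 7 without ground array 1. Without ground array 1 both ring medians lay above 0, at 0.30 for the beta ring and 0.05 for the alpha ring. The beta ring median was 0.20 without flight array 1 and 0.18 with each array shifted to 1 median. Whether the rings differ from each other was not tested.

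Psmb3, a structural beta subunit without a protease site, had the smallest p of the members. It read 13.27 and 13.21 on the flight arrays, against 12.41 and 12.46 on the ground arrays. The groups did not overlap, and the 2 replicates of each lay close together. The difference was 0.80 ± 0.18 (SE, n = 2 arrays per group; limma adjusted p = 0.104), and the dimmer probe set of Psmb3 gave 0.61. The dimmer reading has the same direction. Psmb4, a further structural beta subunit, had 13.77 and 13.94 in flight and 13.20 and 13.49 on the ground. Its groups were separated as well, with a difference of 0.51 ± 0.17 (SE; limma adjusted p = 0.209), and a dimmer probe set stood at 0.05. Probe sets of the maker's x class, as for Psmb4, can also bind other transcripts.

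Psmb1, also structural, had 12.28 and 12.35 in flight cultures and 11.72 and 12.03 in ground cultures. Its difference was 0.43 ± 0.22 (SE; limma adjusted p = 0.399), and dimmer probe sets stood at 0.19 and −0.25. Psmb2 had 10.37 and 9.91 in flight cultures and 9.78 and 9.65 in ground cultures, a difference of 0.42 ± 0.30 (SE), which was 0.20 without flight array 1 and 0.66 without flight array 2. Both genes were separated in the same direction as Psmb3 without passing the test.

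Among the alpha subunits, which form the outer rings and the gate of the barrel, Psma5 stood lowest. It had 13.32 and 13.47 on the flight arrays and 13.93 and 13.83 on the ground arrays, so that the groups did not overlap. The difference was −0.49 ± 0.16 (SE; limma adjusted p = 0.201), with −0.24 on a dimmer probe set. On their brightest probe sets the other 6 alpha genes lay between −0.12 for Psma2 and 0.18 for Psma6. Of these genes, Psma7 had non-overlapping groups, with 11.92 and 12.00 in flight cultures against 12.04 and 12.07 in ground cultures. The brightest probe set of Psma6 is of the x class. A dimmer one had 13.14 and 12.84 in flight and 12.61 and 12.28 on the ground, with separated groups and a difference of 0.55. A further one, of the x class too, stood at 0.36 with overlapping groups. Psma1 stood at 0.11 ± 0.20 (SE) on its brightest probe set and at −1.61 on a much dimmer one, whose flight array 2 read 4.69 where the other arrays read 8.02 to 8.23. Psma8, a testis-specific alpha subunit, was dim, with 8.14 and 7.88 in flight and 7.70 and 7.86 on the ground.

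**Figure D2:**
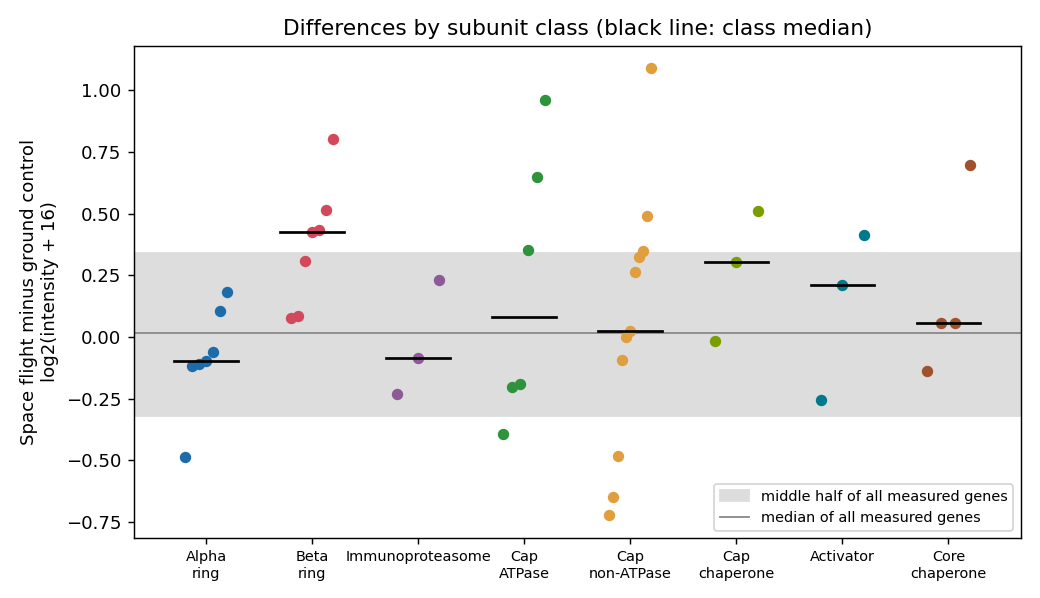
Difference between space flight and ground control, on the log2(intensity + 16) scale, for the measured proteasome genes by subunit class; points are genes and black lines class medians, and the grey band and line show the interquartile range and the median of the 11141 measured genes. Psma8, Psmf1 and Psme3ip1 are not plotted. All 7 beta ring points lie above 0, 5 of the 7 alpha ring points lie below it, and the cap ATPases and non-ATPases spread to both sides; the band describes single genes and is no error of a class median.

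In the cap, members of the same sub-complex lay far apart. Over the 20 cap genes the median difference was 0.14, with 12 above 0, and 0 passed the test, with 3 higher and 4 lower at an unadjusted p under 0.05, or 15% and 20%, where 6.88% and 7.32% of all measured genes were. The median level was 11.81 over the cap genes and 9.25 over all measured genes. The groups were separated with flight higher for 9 cap genes and with flight lower for 4, or 45% and 20%. Over all measured genes these shares were 23% and 22.5%. The 6 ATPases, which form the ring that unfolds the substrate, divided into 3 above 0 and 3 below. Of the 11 non-ATPase subunits, 7 were above 0 and 4 below, with a median of 0.02. With each array shifted to 1 median the cap median was −0.06, with 10 of 20 genes above 0 and 11 of 20 above the median of all genes.

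Psmd13, a subunit of the cap's lid, had the largest difference of the measured members. Its brightest probe set read 12.06 and 11.62 on the flight arrays and 10.91 and 10.59 on the ground arrays. All flight values were higher than all ground values, and the difference was 1.09 ± 0.26 (SE, n = 2 arrays per group; limma adjusted p = 0.117), or 2.13-fold. A second probe set gave the same picture, with 10.93 and 10.99 in flight, 9.86 and 9.88 on the ground, and a difference of 1.085. On 2 further probe sets close to the dim limit the differences were −0.83 and 0.06, and with the mean of all 4 probe sets Psmd13 stood at 0.35. Psmd3, another lid subunit, had 11.17 and 11.43 in flight and 10.73 and 10.88 on the ground, a difference of 0.49 ± 0.25 (SE; limma adjusted p = 0.409).

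On the opposite side were Psmd8, Psmd1 and Psmd14. Psmd8, a lid subunit, had 12.43 and 12.76 on the flight arrays and 13.31 and 13.33 on the ground arrays. Its difference of −0.72 ± 0.19 (SE; limma adjusted p = 0.129) was the lowest of the members, and it had 1 probe set. Psmd1, a large scaffold subunit at the base of the cap, had 12.89 and 12.72 in flight and 13.37 and 13.54 on the ground, a difference of −0.65 ± 0.18 (SE; limma adjusted p = 0.143). Psmd14, the deubiquitinase that cuts ubiquitin chains off the substrate, had 13.22 and 13.22 in flight and 13.72 and 13.69 on the ground. Its flight replicates lay closer together than those of the other members plotted by array, and its difference was −0.48 ± 0.16 (SE; limma adjusted p = 0.205). In all 3 genes the groups did not overlap, as their choice required.

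Of the ATPases, Psmc5 and Psmc6 stood above 0 and Psmc2 below. Psmc5 had 11.37 and 10.74 on the flight arrays and 10.31 and 9.87 on the ground arrays, a difference of 0.96 ± 0.31 (SE; limma adjusted p = 0.195). Its flight values lay farther apart than those of Psmc6 and Psmc2. Psmc6 had 12.38 and 12.34 in flight and 11.95 and 11.48 on the ground, a difference of 0.65 ± 0.23 (SE; limma adjusted p = 0.245), with 0.59 and 0.41 on dimmer probe sets. Psmc2 had 13.86 and 13.95 in flight and 14.28 and 14.31 on the ground, a difference of −0.39 ± 0.14 (SE; limma adjusted p = 0.243), with −0.73 on a second measured probe set. For all 3 the groups were separated, as their choice required. The other ATPases stood at 0.35 for Psmc4, −0.19 for Psmc3 and −0.20 for Psmc1. With the mean of its probe sets, the other of which lay below the dim limit, Psmc1 stood at 0.16.

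**Figure D3:**
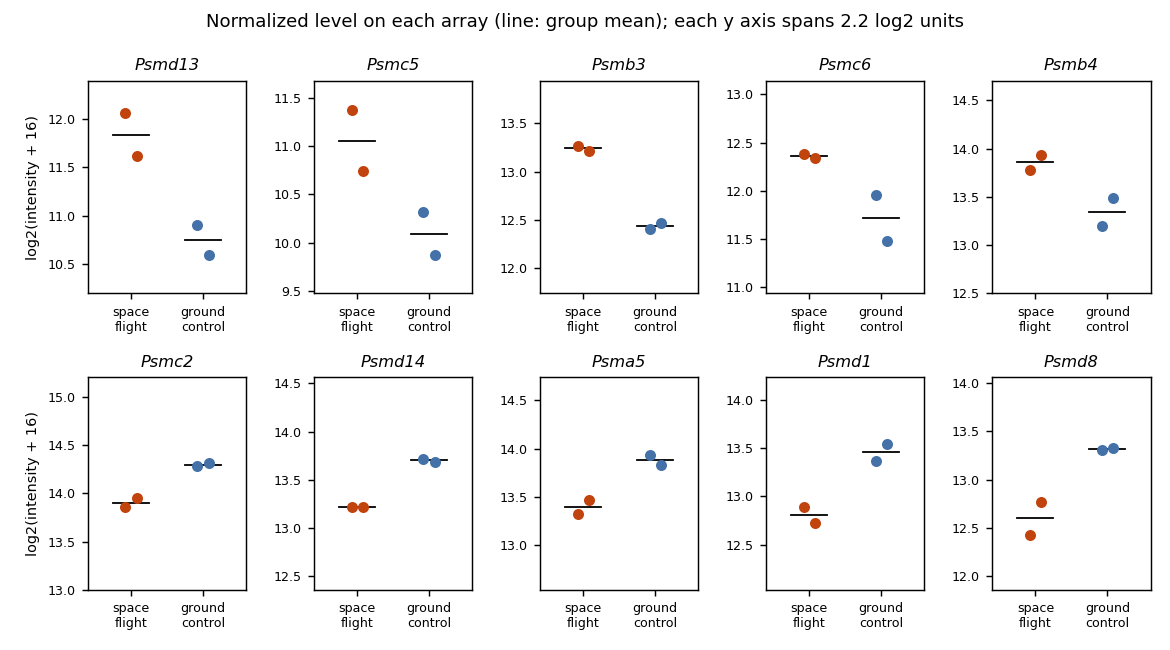
Normalized level, log2(intensity + 16), on each array for the 10 measured members with the largest moderated statistic among those whose groups do not overlap; points are arrays, space flight left and ground control right, and lines group means (n = 2). The upper row holds the genes with flight above ground, led by Psmd13 at 1.09, and the lower row those with flight below ground, down to Psmd8 at −0.72.

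Further cap subunits ran from −0.09 for Psmd6 to 0.35 for Psmd7. Psmd12 had 11.62 and 11.52 in flight and 11.73 and 11.42 on the ground, a difference of 0.00085 ± 0.24 (SE). Psmd2, the scaffold partner of Psmd1, had 13.42 and 12.90 in flight and 13.37 and 12.90 on the ground, a difference of 0.02 ± 0.23 (SE). For both genes the groups overlapped, and the 95% interval of the Psmd2 difference, −0.48 to 0.53, spans values such as that of Psmd14. Psmd4, a ubiquitin receptor of the cap, stood at 0.26 ± 0.22 (SE), and Psmd6 at −0.09 ± 0.20 (SE). Psmd4 had separated groups, with flight higher, and those of Psmd6 overlapped. Psmd11 stood at 0.32 ± 0.18 (SE) with separated groups, flight higher, and at 0.04 to 0.25 on its 4 other measured probe sets. Psmd7 stood at 0.35 ± 0.35 (SE), with 10.27 and 11.29 on the flight arrays and 10.59 and 10.28 on the ground arrays. Its sign turned with 1 array, at −0.17 without flight array 2 and 0.86 without flight array 1. With the mean of its probe sets, a dim one among them, it was 0.90.

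The assembly chaperones of the cap, which leave before the particle is complete, carry Psmd symbols too. Psmd10, also known as the oncoprotein gankyrin, had 10.28 and 10.57 in flight and 9.96 and 9.87 on the ground, a difference of 0.51 ± 0.28 (SE; limma adjusted p = 0.440). Psmd9 had 9.85 and 9.87 in flight and 9.58 and 9.53 on the ground, a difference of 0.31 ± 0.28 (SE; limma adjusted p = 0.668). Both had separated groups. Psmd5 stood at −0.02 ± 0.24 (SE) with overlapping groups. Without these 3 genes the cap median was 0.02 over 17 genes.

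The immunoproteasome subunits showed no shift that passed the test. Their groups overlapped in 3 of 3 cases, where 45.5% of all measured genes had separated groups. The median difference of the 3 subunits was −0.09, with a range of −0.23 to 0.23. Psmb8, which replaces the chymotrypsin-like subunit Psmb5, had 10.46 and 10.32 on the flight arrays and 10.52 and 10.43 on the ground arrays. Its difference was −0.09 ± 0.26 (SE; limma adjusted p = 0.916), with a 95% interval of −0.67 to 0.50. Psmb9, which replaces the caspase-like subunit Psmb6, had 8.99 and 8.66 in flight and 8.13 and 9.06 on the ground, a difference of 0.23 ± 0.38 (SE; 95% interval −0.62 to 1.08). Psmb10, which replaces the trypsin-like subunit Psmb7, had 8.49 and 9.49 in flight and 8.98 and 9.46 on the ground, a difference of −0.23 ± 0.39 (SE; 95% interval −1.09 to 0.63). For Psmb9 and Psmb10 the replicates lay farther apart than the group means, and without 1 array Psmb9 ran from −0.23 to 0.68 and Psmb10 from −0.74 to 0.27. These intervals do not show that the levels were alike.

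The constitutive catalytic partners were close to 0 or above it. Psmb5 had 13.73 and 13.84 in flight and 13.66 and 13.73 on the ground, a difference of 0.09 ± 0.15 (SE; limma adjusted p = 0.842). Psmb6 had 13.52 and 13.74 in flight and 13.43 and 13.68 on the ground, a difference of 0.08 ± 0.17 (SE; limma adjusted p = 0.874). Psmb7 had 12.93 and 12.66 in flight and 12.46 and 12.50 on the ground, a difference of 0.31 ± 0.20 (SE, limma adjusted p = 0.510). It was the only one of the 6 catalytic genes with separated groups, where 45.5% of all measured genes were separated. Taken as the change of each immunoproteasome gene less that of its partner, the values were −0.17 for Psmb8 over Psmb5, 0.15 for Psmb9 over Psmb6 and −0.54 for Psmb10 over Psmb7. On single arrays the last of these was −1.17 and 0.09 in flight, against −0.22 and 0.22 on the ground, so its groups overlapped, as they did for the other pairs.

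**Figure D4:**
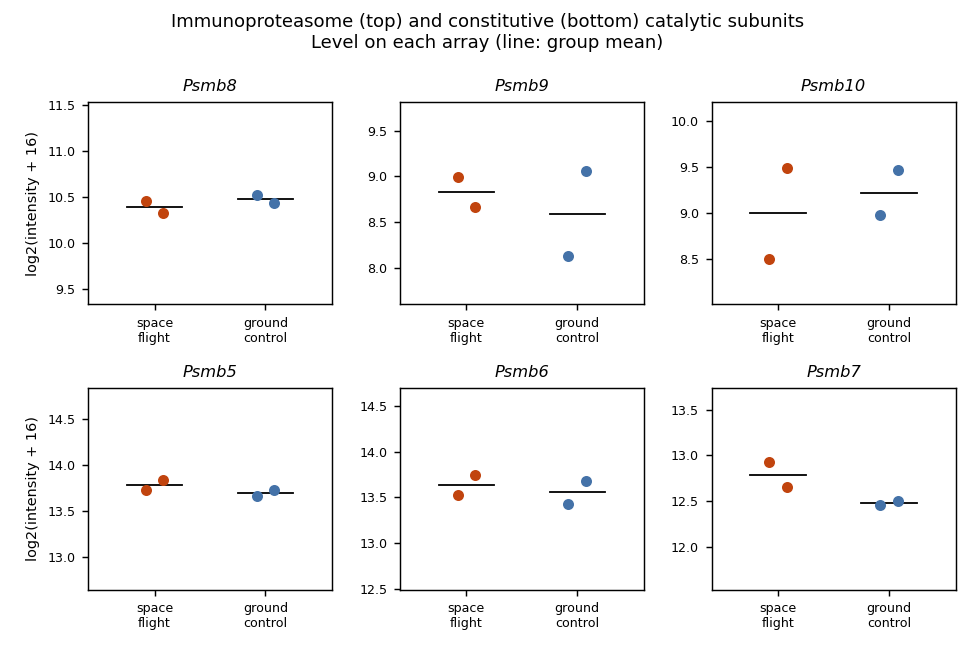
Normalized level, log2(intensity + 16), on each array for the 3 immunoproteasome genes in the upper row and the constitutive subunit that each replaces below it; points are arrays, space flight left and ground control right, and lines group means (n = 2). The groups overlap in every panel except that of Psmb7, where both flight values, 12.93 and 12.66, lie above the ground values.

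The activators, which open the core without the ATPase cap, gave mixed values. Psme1, the interferon-inducible subunit that pairs with Psme2, had 10.36 and 10.11 on the flight arrays and 10.01 and 9.63 on the ground arrays. Its groups were separated, with a difference of 0.42 ± 0.29 (SE; limma adjusted p = 0.558). Psme3, the nuclear activator, had 9.71 and 9.26 in flight and 9.59 and 8.96 on the ground, a difference of 0.21 ± 0.34 (SE) with overlapping groups. Psme4, a large single-chain activator known from male germ cells, had 11.88 and 11.48 in flight and 12.03 and 11.85 on the ground, a difference of −0.26 ± 0.24 (SE). It ran from −0.46 to −0.06 with 1 array left out. With the mean of all its probe sets, also those below the dim limit, it was −0.73. Its other measured probe sets gave −0.35 and −0.45. Psme3ip1 had 11.13 and 10.93 in flight and 10.56 and 10.07 on the ground. That is a difference of 0.72 ± 0.28 (SE; limma adjusted p = 0.284) with separated groups.

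Psmf1, named as a proteasome inhibitor, had 9.84 and 10.11 in flight and 9.77 and 9.27 on the ground, a difference of 0.45 ± 0.31 (SE; limma adjusted p = 0.540). Its 3 other probe sets gave 0.25, 0.84 and −0.24. The chaperones that help assemble the core rings stood at −0.14 ± 0.28 (SE) for Psmg1, 0.06 ± 0.30 for Psmg2, 0.06 ± 0.30 for Psmg3 and 0.70 ± 0.43 for Psmg4. Psmg1 had separated groups, with 9.99 and 9.81 in flight and 10.02 and 10.05 on the ground. Psmg4 had 9.74 and 11.01 on the flight arrays and 9.26 and 10.09 on the ground arrays, so its groups overlapped. It stood at 0.06 without flight array 2 and at 1.34 without flight array 1 (limma adjusted p = 0.00969).

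With a single flight array the number of calls grew for all genes. Without flight array 1, Psmb3, Psmd13 and Psmg4 were called higher and Psmd1 lower (limma, adjusted p under 0.05), where 10% of all measured genes were called. Without flight array 2, which has the Gapdh ratio of 15.2, Psmb3, Psmc5 and Psmd13 were called higher and Psmd8 lower, where 8.08% of all measured genes were called. Such fits take the spread of the single flight array from the ground arrays. Without ground array 1 or ground array 2, 0 members were called, where 0.0802% and 0.366% of genes were. The differences of Psmb3, Psmd13, Psmd8, Psmd1 and Psmc5 kept their sign in all 4 of these fits, with ranges of 0.79 to 0.82, 0.87 to 1.30, −0.86 to −0.57, −0.75 to −0.54 and 0.65 to 1.27. As these genes were picked for separated groups, leaving out 1 array could hardly turn their sign, which is thus no further result. Of all 47 members, 14 turned sign in at least 1 of the 4 fits, and 34 either turned or moved by over 1.5 times.

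Other probe sets of the same genes give a second reading that the choice of the brightest one did not use. Of the 103 probe sets, 85 reached the dim limit, and 0 of these passed limma's test over 22519 measured probe sets, where 0.0488% did. Leaving out Psmc3ip, 36 measured probe sets of 23 genes were not their gene's brightest, and 28 of the 36 had the same sign as the brightest. Measured probe sets of opposite sign occurred in 8 genes, namely Psma1, Psmb1, Psmb8, Psmd6, Psmd13, Psmf1, Psmg2 and Psmg3. Probe sets of 1 gene share the RNA and the array, so they are no replicates of a condition.

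**Figure D5:**
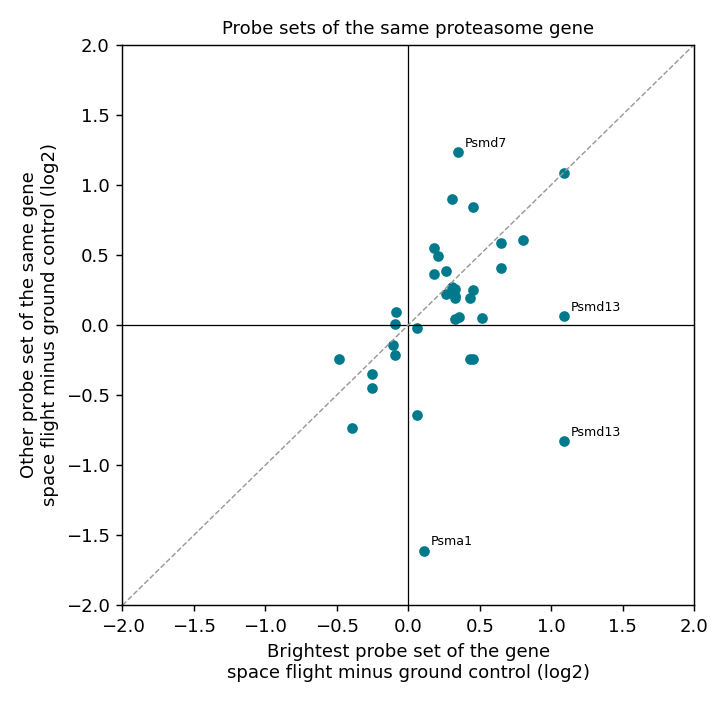
Difference between space flight and ground control (log2) of each further measured probe set on the vertical axis, against that of the brightest probe set of the same proteasome gene on the horizontal axis; each of the 36 points is 1 probe set and the dashed line marks equality. Of the points, 28 lie in the quadrants of equal sign, and the 4 labelled ones lie farthest from the dashed line, among them Psma1 at −1.61 and Psmd13 at −0.83.

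Genes that work beside the proteasome were taken from a list of 31, of which 22 were named here and all 22 measured. Of these 0 passed limma's test, and 3 were higher and 2 lower at an unadjusted p under 0.05, where 6.88% and 7.32% of all measured genes were. Their median difference was 0.10, beside 0.02 over all measured genes, and it was −0.11 with each array shifted to 1 median. Nfe2l2, a stress-responsive transcription factor that induces proteasome genes among others, had 12.05 and 11.85 on the flight arrays and 12.84 and 12.38 on the ground arrays. The groups were separated, with a difference of −0.66 ± 0.23 (SE; limma adjusted p = 0.220). Its relative Nfe2l1, which drives the recovery of proteasome transcripts when the enzyme is blocked, had 10.95 and 10.32 in flight and 10.01 and 9.95 on the ground, a difference of 0.65 ± 0.30 (SE; limma adjusted p = 0.358). Nfe2l1 was named after its value was seen.

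Other named genes of that list were Nploc4, Zfand5 and Uba6. Nploc4, a cofactor of the segregase that pulls ubiquitinated proteins out of complexes, stood at 0.87 ± 0.37 (SE; limma adjusted p = 0.324). Zfand5, a zinc finger protein that stimulates the proteasome, stood at 0.42 ± 0.18 (SE; limma adjusted p = 0.315). Uba6, a ubiquitin-activating enzyme, stood at −0.61 ± 0.26 (SE; limma adjusted p = 0.319). In each of the 3, picked for large statistics, the groups did not overlap. Over the 22 listed genes the groups were separated with flight higher for 9 and lower for 4, where 23% and 22.5% of all measured genes were. Pomp, the maturation chaperone of the core, stood at 0.03 ± 0.22 (SE) and was named for its role after its value was seen.

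Class I antigen processing and interferon response genes were a list of 16, with 15 measured. Of these 0 passed limma's test, with 0 higher and 1 lower at an unadjusted p under 0.05, a share near the 7.32% of all measured genes that were lower. Their median difference was −0.12, and with values as deposited it was 0.05. Gbp2, an interferon-induced GTPase, had 7.91 and 9.32 in flight and 9.69 and 10.15 on the ground, a difference of −1.30 ± 0.44 (SE; limma adjusted p = 0.214). Erap1, which trims peptides in the endoplasmic reticulum, stood at −0.79 ± 0.37 (SE; limma adjusted p = 0.362), B2m, the light chain of class I molecules, at −0.21 ± 0.13 (SE; limma adjusted p = 0.476), and H2-M3 at −0.47 ± 0.30 (SE; limma adjusted p = 0.507). The groups were separated in all 4, which were picked for large statistics. Over the 15 genes the groups were separated with flight higher for 1 and lower for 5, where 23% and 22.5% of all measured genes were. Irf1, the interferon-induced factor that acts on Psmb9, stood at 0.28 ± 0.28 (SE) and was named after its value was seen.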

How the data were processed

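RNA was hybridised to Affymetrix mouse arrays after 2 rounds of amplification, per the labels' protocols. The deposited file holds 1 linear intensity per probe set and array. The submitters' processing notes name GCOS, with no version; the summarising algorithm is not given in the sources used here. The deposited intensity values had a mean of 500.004 per array once 2% at either end were trimmed. Probe set positions are not given, since no build is named. Precision is limited by the 4 arrays.

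Control probe sets (64) were removed, log2(value + 16) was quantile normalized because array medians differed by up to 0.385, and each gene was taken by its brightest single-symbol probe set. The added 16 shrinks the differences of dim genes. Of 45037 probe sets, 34945 had 1 symbol, 932 several and 9160 none here; 34741 matched RefSeq gene identifiers (GRCm38.p6) and 0 symbols changed. Limma 3.58.1 in R 4.3.3 (lmFit and eBayes, intensity trend, two-sided, Benjamini-Hochberg over 11141 genes) compared 2 with 2 arrays; all adjusted p-values are from it. The moderated test had 10.4 degrees of freedom, and an exact permutation test could not go below 0.333. The procedure was tested on simulated data. Set tests were not run; groups are described by counts and medians.

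Members and lists were chosen with earlier results of these data known. Named genes were those passing the test; the 10 separated members of largest absolute moderated statistic; the catalytic pairs; activators, inhibitor and chaperones; genes with probe sets of opposite sign; those closest to 0; and the 4 largest statistics of each pathway list. Other members were picked for description after their values were seen. Alternatives were array scaling, pseudocount, dim filter, probe set averaging (dim probe sets included), variance trend and leaving out each array with renormalization. Further ones were a replicate block, a threshold of 0.10, the cap without its chaperones and, chosen after seeing the data, the members without Psme3ip1.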

Additional observations from a re-analysis of the deposited data

How the results depend on the processing

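The numbers of higher and lower genes over all measured genes were 5 and 2, and they were 12 and 4 on the deposited scale, 16 and 5 with cyclic loess, 0 and 0 with each array shifted to 1 median, with no filter on dim probe sets, with the mean of probe sets and with no intensity trend, 53 and 47 at an adjusted p under 0.10, and 8 to 500 and 1 to 621 with 1 array left out; lower genes were 6 with a pseudocount of 64. The cause was not tested. Proteasome genes called were 0 and 0 under all alternatives other than leaving out an array (0 to 3 higher, 0 to 1 lower) and the replicate block. With replicate numbers as a block, 220 genes were higher and 213 lower, and 2 members were higher (Psmb3 0.80, Psmd13 1.09) and 2 lower (Psmd8 −0.72, Psmd1 −0.65), where 3.89% of genes were called; the labels do not say that a number marks a shared culture, and the deviations of same-numbered arrays correlated at 0.0572 across genes.

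The median over proteasome genes was 0.20 with values as deposited, 0.00082 with 1 median per array and 0.0615 to 0.163 with 1 array left out. That of the constitutive core was 0.21, 0.0047 and 0.11 to 0.16, and 0.13 with cyclic loess. That of the cap was −0.0560 with 1 median per array, 0.25 with the mean of probe sets, 0.0245 without its chaperones and 0.0469 to 0.236 with 1 array left out. The activator median ran from −0.11 to 0.52 there and that of the immunoproteasome subunits from −0.23 to 0.07, with −0.34 under 1 median per array. The median over all measured genes was 0.0406 as deposited, −0.16 with 1 median, 0.0305 with cyclic loess, 0.0303 with no filter, −0.0149 with the mean of probe sets and 0.00639 to 0.0332 with 1 array left out.

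Signs changed with each array shifted to 1 median for Psme3 (−0.0152), Psmg2 (−0.18), Psmg3 (−0.19), Psma1 (−0.11), Psmd12 (−0.24) and Psmd2 (−0.15); with the mean of probe sets for Psmb8 (0.0042), Psmg2 (−0.25), Psmg3 (−0.29), Psma1 (−0.59) and Psmc1 (0.16); for Psmd12 (−0.0382) and Psma3 (0.0309) as deposited; and for Psmd12 with cyclic loess (−0.0144). With 1 array left out Psmb6 ran from −0.0469 to 0.21, Psmb9 from −0.23 to 0.68, Psmb10 from −0.74 to 0.27, Psme3 from −0.11 to 0.52, Psmg2 from −0.16 to 0.28, Psmg3 from −0.18 to 0.29, Psmd5 from −0.16 to 0.13, Psmd6 from −0.23 to 0.0641, Psmd12 from −0.16 to 0.16, Psmd2 from −0.24 to 0.27, Psmd7 from −0.17 to 0.86, Psma2 from −0.29 to 0.0570, Psma3 from −0.27 to 0.0518 and Psma4 from −0.26 to 0.13. The distance between replicates limits what these arrays show of Psmb9, with 8.13 and 9.06 on the ground, and of Psmb10, with 8.49 and 9.49 in flight. Dim signal limits what they show of Psma8.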
